A study of Nannochloropsis oceanica with 6 samples.

Results

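The genes described here are those of *Nannochloropsis oceanica* that the annotation in the deposited tables assigns to the KEGG pathway of ubiquitin mediated proteolysis and not to protein processing in the endoplasmic reticulum. This rule used the annotation only and no expression value. It selected 67 of the 10569 genes in the tables, whereas 15 of the 82 genes in the pathway were left out because they carried both pathways. By their descriptions, the 67 members comprised 8 activating enzymes (E1), 14 conjugating enzymes (E2) and 15 subunits or activators of the anaphase-promoting complex (APC/C). A further 11 were parts of cullin-RING ligases, 13 HECT ligases and 4 RING or U-box ligases. The remaining 2 had descriptions of none of these roles, in conflict with their KEGG entries. In some other members the description and the entry named different proteins of one role group, such as HERC1 with HUWE1 (NO18G02260) or cullin-1 with CUL3 (NO13G02660). The role of 7 of the 67 members was assigned by hand from the description or the KEGG entry. Word searches in the descriptions gave a single class of other ligases, which was split by hand into HECT and RING or U-box ligases.

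*N. oceanica* IMET1 is a marine microalga that accumulates lipid when nitrogen runs out. Polyadenylated RNA was sequenced from nitrogen-replete cells in logarithmic growth under continuous light of 80 µmol m-2 s-1 (C0), and from cells washed, moved to nitrogen-free medium under 50 µmol m-2 s-1 and sampled after 1 day (N1) or 2 days (N2) of nitrogen deprivation (ND). All 3 groups were the same strain in modified f/2 medium, and each had 2 libraries. The loss of nitrogen, the lower light, the washing and the time in culture cannot be told apart in these groups. Replicates were called biological in the study's text, but the labels do not say that they came from separate cultures, and p-values may then measure a technical spread. Libraries held 4875888 to 6523021 counts. The squared difference between replicates, relative to the value of 1 for counting error alone, averaged 1.40 in C0, 1.59 in N1 and 2.10 in N2 over the members, and 1.78, 2.07 and 3.40 over all genes, so the N2 replicates differed most.

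Ubiquitin is a small protein that is attached to other proteins by a relay of 3 enzymes. An E1 activates it, an E2 carries it, and a ligase (E3) brings the E2 to the substrate, which the proteasome often then degrades. Sister relays attach the ubiquitin-like proteins SUMO and NEDD8, and NEDD8 on a cullin switches cullin-RING ligases on. In eukaryotes the APC/C drives cells out of mitosis, and cullin-RING ligases control many processes through exchangeable substrate receptors.

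Levels are given below as counts per 1000000 counts (CPM) after TMM scaling, and changes as log2 fold changes ± an approximate standard error (SE) from edgeR's quasi-likelihood test. A gene is said to have risen or fallen only where the Benjamini-Hochberg adjusted p over all 9736 genes tested was below 0.05. CPM describes the share of a library's RNA, so a lower level and more RNA from other genes cannot be told apart, nor can fewer cells making a transcript and less of it per cell. In total, 66 members were tested. In N1 against C0, 24 members rose and 22 fell, which is 69.7% of the members beside 70.4% of all genes tested (33.3% higher and 37.1% lower). In N2 against C0, 25 rose and 18 fell, 65.2% beside 69.9% (35.0% higher and 34.9% lower). From N1 to N2, 25 rose and 20 fell, 68.2% beside 57.9% (29.4% higher and 28.5% lower). These last counts depended on the scaling and test, at 33 and 16 with library totals, 29 and 12 with TPM and limma, and 15 and 15 with DESeq2. The calls over all genes shifted as well: 61.1%, 62.6% and 46.7% of them were higher in these settings, beside 50.8% with edgeR and TMM. The share of members that changed from C0 was therefore close to that of all genes. The median log2 fold change of the members was 0.03, 0.10 and 0.13 in these comparisons, beside -0.04, 0.01 and 0.00 for all genes tested. Changes of at least 2-fold were few: 8 members up and 5 down in N1, 7 up and 3 down in N2, and 4 up and 2 down from N1 to N2. The proportions of all genes tested at this size were 13.3% and 14.9%, 13.8% and 10.9%, and 8.70% and 3.66%.

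**Figure D1:**
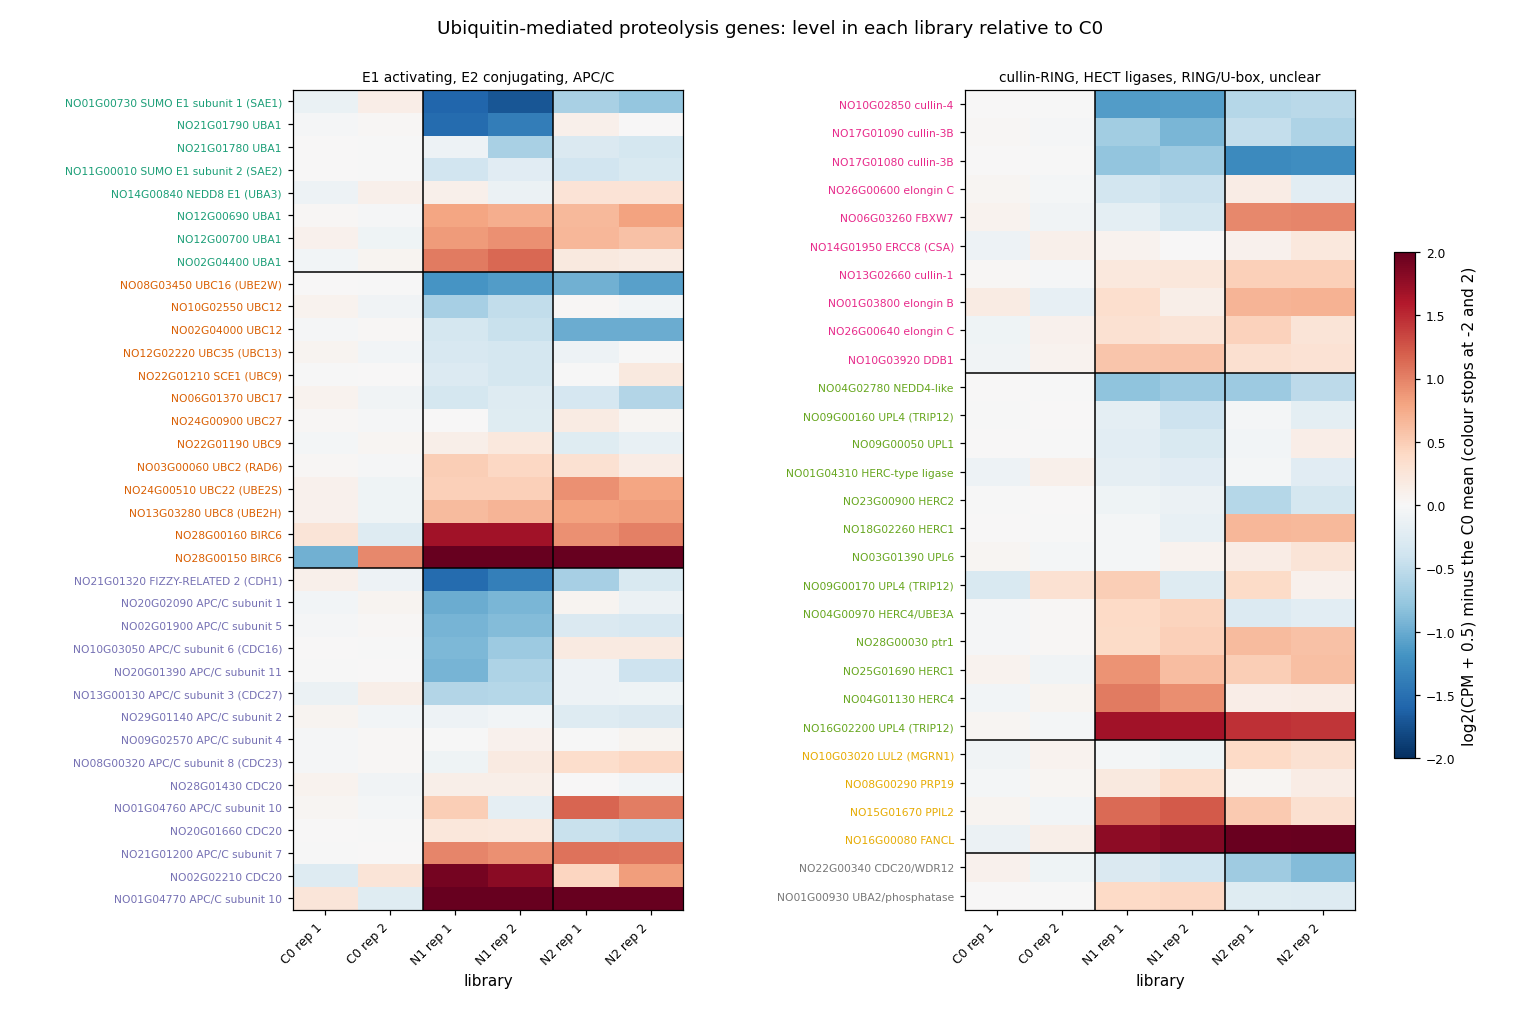
Heat map of 65 members (rows, coloured and grouped by role) in the 6 libraries (columns), as log2(CPM + 0.5) minus the mean of the C0 libraries. Replicates share their colours in nearly all rows, and rows of one role group run from blue (lower than C0) to red (higher than C0); the 2 members with no counts in a whole group are not drawn.

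Among the members, 14 fell on day 1 and rose again on day 2 (background over all genes tested 18.0%), and 15 rose on day 1 and fell again on day 2 (17.7%). With TPM and limma these counts were 15 and 8. DESeq2 lost a call needed for the fall and return of NO12G02220, NO17G01090, NO20G01390 and NO26G00600. It also lost one needed for the rise and fall of NO03G00060, NO12G00700, NO22G01190 and NO28G00150. A fall and return without passing the test against C0 on day 2 was the course of 9 members. That is 13.6% of the members tested beside 5.93% of all genes tested. A fall and return to above C0 on day 2 was found for 0 members, beside 2.52% of all genes tested. A further 7 members did not pass on day 1 and were higher on day 2 than in both other groups (5.96%), and 3 rose on day 1 and again on day 2 (4.25%). Against C0, 17 members were higher on both days (24.8%) and 12 were lower on both days (27.1%). Opposite directions against C0 on the 2 days were called for 4 members (4.48%). No comparison called 8 members (13.8%).

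The length-scaled level (TPM, which divides by gene length) of the members had a median of 46.3 over the libraries, beside 45.4 for all genes, and 34 of the 67 lay above that median. Together they made up 0.422% to 0.428% of all TPM in the C0 and N1 libraries and 0.464% to 0.473% in N2. Their share of all counts followed another course, at 0.698% in both C0 libraries, 0.626% and 0.622% in N1 and 0.693% and 0.688% in N2, lower on day 1 and not above C0 on day 2. Averaged over all 6 libraries, the highest level in TPM was 329 for the cullin-4 gene NO10G02850. The leading E2 on this average was RAD6-like UBC2 (229, NO03G00060). Leaders of other role groups were the U-box ligase PRP19 (174, NO08G00290), the APC/C activator CDC20 (171, NO20G01660), the E1 UBA1 (109, NO12G00700) and the HECT ligase UPL4 (82.0, NO16G02200). Members that did not lead their role group could be higher than these, such as the E2 SCE1 (190, NO22G01210). The order depended on the sample group. In N1, UBC2 averaged 256 TPM and cullin-4 208, and in C0 the leading E1 was SAE1 (112 against 73.1 for NO12G00700), the leading HECT ligase HERC2 (85.6 against 36.6 for UPL4) and the leading E2 SCE1 (199 against 193 for UBC2).

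**Figure D2:**
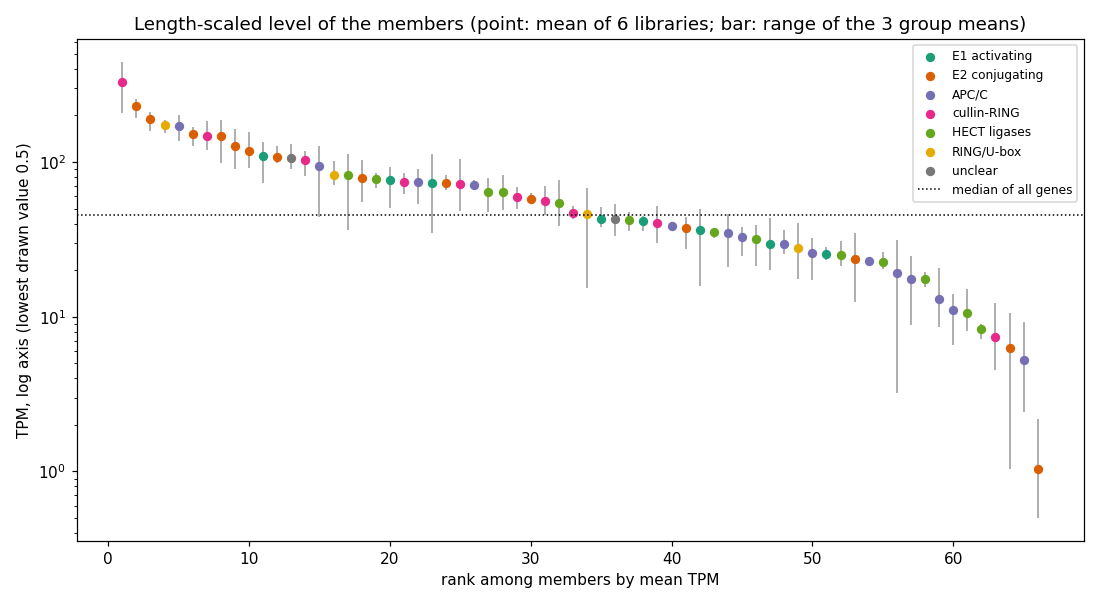
Mean TPM over the 6 libraries (points, log axis) of the 66 members with counts, ranked from the highest to the lowest and coloured by role, with bars for the range of the 3 group means. Averaged over the 6 libraries the cullin-4 gene leads at 329 TPM, although in N1 UBC2 is above it (256 against 208 TPM), and the dotted line marks the median of all genes at 45.4 TPM.

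Members of the APC/C divided by gene rather than moving as a complex. In N1 against C0, 4 of the 15 genes rose and 6 fell (26.7% and 40%, beside 33.3% and 37.1% of all genes tested). In N2 against C0, 5 rose and 4 fell (33.3% and 26.7%, beside 35.0% and 34.9%). From N1 to N2, 8 rose and 2 fell, and 53.3% of the group was therefore higher on day 2 than on day 1 beside 29.4% of all genes tested. With DESeq2, 6 rose and 2 fell in this comparison. Those that fell on day 1 and rose on day 2 were 6 genes: the platform subunits APC1 and APC5, the scaffold subunits APC3 and APC6, the RING subunit APC11 and CDH1, an activator that in other eukaryotes keeps the complex active in G1.

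APC1 (NO20G02090) stood at 32.0 and 34.3 CPM in C0, 16.5 and 17.3 on day 1, then 34.3 and 30.6 on day 2. It fell by 0.97 ± 0.14 on the log2 scale on day 1 and rose by 0.94 ± 0.14 from day 1 to day 2, and its N2 libraries overlapped those of C0. The CPM of CDH1 (NO21G01320, described as FIZZY-RELATED) was 35.5 and 31.0 in C0, 11.1 and 12.6 on day 1, then 20.7 and 26.7 on day 2. CDH1 showed the largest fall of the group on day 1 (log2 fold change -1.49 ± 0.18), and on day 2 it had risen by 1.00 ± 0.18 without its libraries reaching the C0 range. For APC6 (NO10G03050, CDC16) the libraries held 66.5 and 66.4 CPM in C0, 35.3 and 40.1 on day 1, then 75.6 and 75.0 on day 2. The groups of APC6 did not overlap, yet its day-2 level did not pass the test against C0 (log2 fold change 0.18 ± 0.08, edgeR adjusted p = 0.065). The day-2 rise of APC6 passed with library totals and with TPM. The day-1 log2 fold changes of the other genes with this course were -0.91 for APC5 (NO02G01900), -0.59 for APC3 (NO13G00130, CDC27) and -0.79 for APC11 (NO20G01390).

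Higher levels were found for other subunits of the same complex. APC7 (NO21G01200), a scaffold subunit, was measured at 126 CPM in both C0 libraries, at 250 and 239 in N1, and at 269 and 264 in N2. It rose by 0.95 ± 0.06 on day 1 and by 1.08 ± 0.06 on day 2 against C0, with no overlap between C0 and either day. One of 2 adjacent genes for APC10, which helps the complex to bind its substrates, NO01G04760, held 15.7 and 14.9 CPM in C0, 21.8 and 13.4 on day 1, then 34.9 and 31.8 on day 2. The N1 libraries of this gene spanned the C0 values, and it rose on day 2 (1.12 ± 0.19 against C0). Its day-1 change of 0.21 became 0.51 and passed without N1 replicate 2. Its neighbour NO01G04770 was scarce, at 0.992 and 0.574 CPM (5 and 3 counts) in C0 and 5.35 to 9.32 CPM in the other 4 libraries, and had log2 fold changes of 2.87 ± 0.49 in N1 and 3.30 ± 0.46 in N2. APC8 (NO08G00320, CDC23) rose on day 2 only, by 0.39. APC2 (NO29G01140), the cullin-like subunit, fell on day 2 by 0.28 on the log2 scale. APC4 (NO09G02570) passed no test, and its 6 libraries lay between 64.9 and 69.5 CPM.

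The 3 genes for CDC20, the activator that in other eukaryotes directs the APC/C at the start of anaphase, followed different courses. NO02G02210 was low in C0, at 4.37 and 6.51 CPM, reached 21.4 and 19.8 in N1 and returned to 7.38 and 9.93 in N2. This was a rise of 1.92 ± 0.25 on day 1 and a fall of 1.25 on the log2 scale to day 2. The most abundant CDC20 gene, NO20G01660, went from 209 and 208 CPM in C0 to 243 and 242 in N1 and to 153 and 147 in N2. Its 3 groups were fully separated, with a rise of 0.22 ± 0.05 on day 1 and a log2 fold change of -0.47 ± 0.05 on day 2 against C0. NO28G01430 lay between 96.5 and 111 CPM and passed no test. The count of 6 APC/C genes with the fall and return became 5 without N1 replicate 1 or without N2 replicate 1. Without C0 replicate 1, 2 rather than 4 APC/C genes were lower in N2 than in C0, since the day-2 calls of CDH1 (also lost without N2 replicate 1) and APC2 (also lost without N2 replicate 2) ended, and the rise of NO02G02210 on day 2 against C0 (0.66, edgeR adjusted p = 0.042) was lost when C0 replicate 1, either N1 library or N2 replicate 2 was left out.

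**Figure D3:**
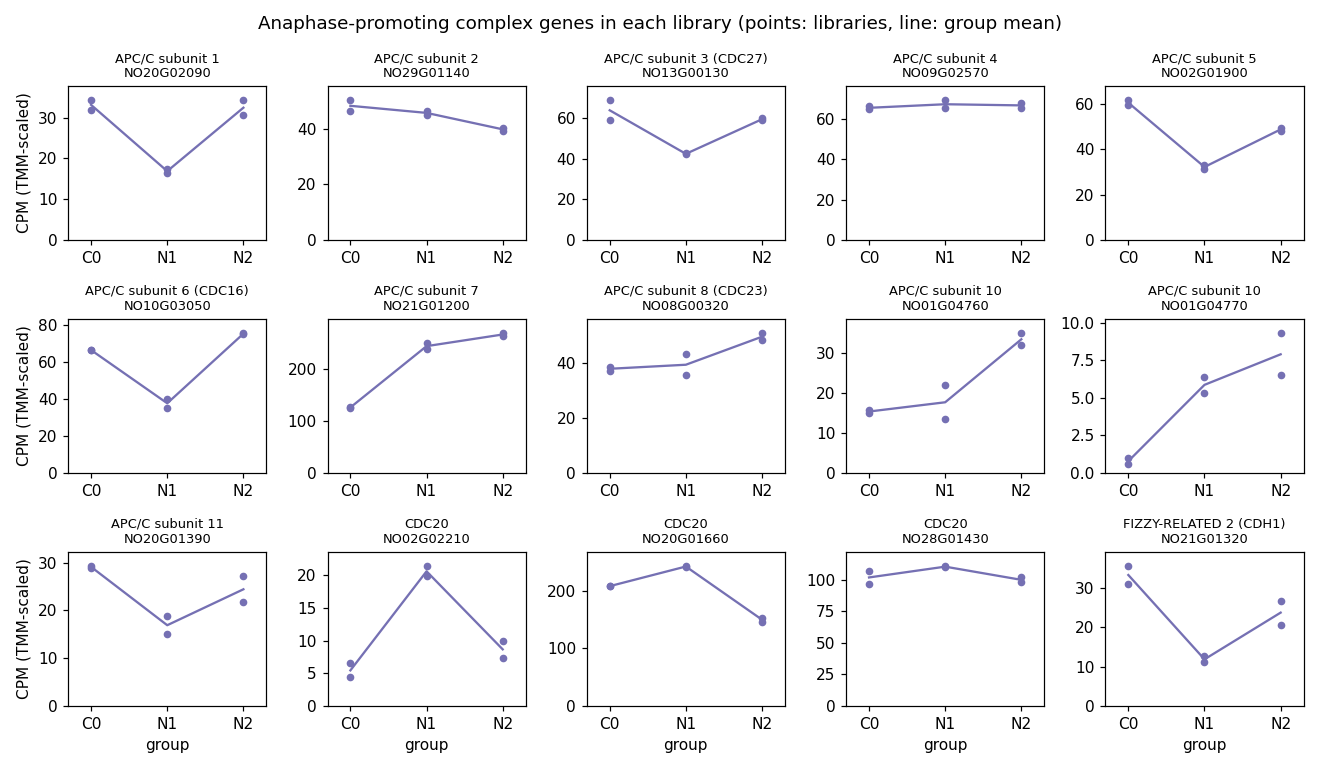
CPM of the 15 APC/C genes, 1 panel each with its own axis from 0, in C0, N1 and N2 (points are libraries, lines join group means). APC1, APC3, APC5, APC6, APC11 and CDH1 dip in N1, APC7 and both APC10 genes climb, and the 3 CDC20 genes differ from each other.

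Cullin-RING ligases are built on a cullin scaffold, and the cullin-4 and cullin-3B scaffold genes were lower on day 1. Of the 10 members tested, 2 rose and 4 fell in N1 (20% and 40%, beside 33.3% and 37.1% of all genes tested). In N2 against C0, 5 rose and 3 fell (50% and 30%, beside 35.0% and 34.9%). From N1 to N2, 6 rose and 2 fell (60% and 20%, beside 29.4% and 28.5%). The CPM sum of the group was 2470 and 2474 in C0, 1709 and 1710 on day 1, then 1995 and 1996 on day 2. Cullin-4 (NO10G02850) carried most of this: its libraries held 1332 and 1315 CPM in C0, 611 and 615 on day 1, then 894 and 906 on day 2. It fell by 1.11 ± 0.04 on the log2 scale on day 1, rose by 0.55 ± 0.04 to day 2 and stayed below C0, and none of its groups overlapped. DDB1 (NO10G03920), the adaptor that links cullin-4 to its substrate receptors, moved the other way: it held 189 and 208 CPM in C0, 291 and 295 on day 1, then 249 and 243 on day 2, a rise of 0.56 ± 0.06 on day 1. The receptor ERCC8 (NO14G01950), known in human cells from transcription-coupled DNA repair, passed no test, at 93.3 to 116 CPM. Its day-2 rise against C0 passed with library totals, with TPM and without C0 replicate 2. Its rise from N1 to N2 passed with library totals.

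Cullin-3 scaffolds pair with BTB-domain receptors. The cullin-3B gene NO17G01080 declined from 387 and 386 CPM in C0 to 223 and 232 in N1 and to 160 and 162 in N2, a log2 fold change of -1.26 ± 0.05 on day 2 with all groups separated. Its neighbour NO17G01090 fell by 0.81 on the log2 scale on day 1 and remained lower on day 2 (-0.55). A gene with the KEGG entry CUL3 that is described as cullin-1, NO13G02660, rose instead, by 0.22 on day 1 and 0.48 on day 2. Elongin B and elongin C are adaptors of cullin-RING ligases in animals. The elongin B gene NO01G03800 rose on day 2 (0.69), the elongin C gene NO26G00640 also (0.36, lost without C0 replicate 1 or N2 replicate 1), and the other elongin C gene, NO26G00600, fell on day 1 (-0.41, lost without C0 replicate 1 or N1 replicate 2). The member with the KEGG entry FBXW7 (NO06G03260), an F-box receptor in animals, held 4.90 to 6.75 CPM in C0 and N1 and 13.0 and 13.1 in N2, a rise of 1.02 ± 0.23 on day 2 against C0. Without N1 replicate 2, the rises from N1 to N2 numbered 3 rather than 6 (the calls of elongin B, NO26G00600 and NO17G01090 were lost), and DESeq2 also called 3. A second cullin-4 locus, NO10G02840, had no count in any library and was not tested.

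The E1 genes showed opposite changes within one enzyme. Of the 8, 3 rose and 3 fell in N1 (37.5% each, beside 33.3% and 37.1% of all genes tested). In N2 against C0, 3 rose and 2 fell (37.5% and 25%, beside 35.0% and 34.9%). From N1 to N2, 3 rose and 2 fell (37.5% and 25%, beside 29.4% and 28.5%). UBA1, the E1 for ubiquitin itself, was represented by 5 loci. NO21G01790 held 90.5 and 94.0 CPM in C0, 31.3 and 35.0 on day 1, then 98.7 and 92.9 on day 2. It fell by 1.48 ± 0.09 on the log2 scale on day 1 and rose by 1.53 ± 0.09 to day 2, when it overlapped C0. The opposite course was seen for NO02G04400, which rose from 44.1 and 47.7 CPM in C0 to 95.1 and 103 in N1 and was at 52.4 and 51.5 in N2. That rise amounted to 1.11 ± 0.09, and the day-2 level did not pass the test against C0 (0.18 ± 0.09) but did with library totals and with TPM. The adjacent NO12G00690 and NO12G00700 both rose on day 1 (0.76 and 0.89) and were higher than C0 on day 2 (0.73 and 0.63). NO12G00700, the E1 with the highest TPM averaged over all libraries but not in C0, held 27.2 and 24.3 CPM in C0, 46.6 and 48.8 on day 1, then 40.9 and 38.8 on day 2, and its fall from N1 to N2 (-0.26, adjusted p = 0.049) was lost when any single library was left out. The fifth locus, NO21G01780, passed no test, with a log2 fold change of -0.35 on day 1 that became -0.66 and passed without N1 replicate 1, and was -0.11 without N1 replicate 2. Its day-2 change of -0.32 passed without either N1 library.

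Both subunits of the SUMO E1 were lower under ND. SAE1 (NO01G00730) held 49.2 and 59.7 CPM in C0, 17.6 and 16.2 on day 1, then 34.4 and 31.5 on day 2. Its fall of 1.69 ± 0.14 on the log2 scale was the largest of any member with a mean of at least 10 CPM on day 1, and on day 2 it was between the other groups (-0.73 ± 0.12 against C0). SAE2 (NO11G00010) fell less, by 0.31 on day 1 and 0.35 on day 2, and its day-2 call was lost with TPM. For NEDD8, the catalytic E1 subunit UBA3 (NO14G00840) rose on day 2 by 0.27 against C0, a call lost without C0 replicate 1 or without either N2 library.

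Among the 14 E2 genes, 6 rose and 5 fell in N1 (42.9% and 35.7%, beside 33.3% and 37.1% of all genes tested). In N2 against C0, 5 rose and 4 fell (35.7% and 28.6%, beside 35.0% and 34.9%). From N1 to N2, 4 rose and 6 fell (28.6% and 42.9%, beside 29.4% and 28.5%). The 2 expressed genes for UBC12, the E2 that carries NEDD8 to cullins, parted on day 2. NO02G04000 declined from 57.8 and 59.9 CPM in C0 to 46.2 and 43.1 in N1 and to 29.2 and 29.3 in N2, reaching a log2 fold change of -1.01 ± 0.10. NO10G02550 fell by 0.59 on the log2 scale on day 1 and overlapped C0 on day 2, with 144 and 159 CPM in C0 and 145 and 154 in N2. Another UBC12 locus, NO10G02560, had 6 counts in C0 replicate 1, 14 in N1 replicate 1 and none in the other 4 libraries. Its call from N1 to N2 (edgeR adjusted p = 0.042) was lost without N1 replicate 1 or either N2 library, and no fold is given. Without N1 replicate 1, 3 rather than 6 E2 genes fell from N1 to N2.

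The largest fall among the E2 genes was in NO08G03450, described as UBC16, which is related to human UBE2W, within one model with a dynein light chain. It held 485 CPM in both C0 libraries, 215 and 223 on day 1, then 250 and 229 on day 2, a log2 fold change of -1.15 ± 0.05 on day 1 and -1.02 ± 0.05 on day 2. Rises were found for UBC8 (NO13G03280, UBE2H; 0.66 and 0.83) and UBC22 (NO24G00510, UBE2S; 0.48 and 0.86), the latter an E2 that lengthens ubiquitin chains for the APC/C in human cells. RAD6-like UBC2 (NO03G00060), which in yeast ubiquitinates histone H2B and acts in DNA repair, had 48.8 and 47.7 CPM in C0, 68.4 and 64.2 on day 1, then 59.5 and 53.3 on day 2. It rose by 0.46 ± 0.10 on day 1, whereas its day-2 call against C0 (0.23, adjusted p = 0.046) was lost without C0 replicate 1, C0 replicate 2, N1 replicate 2 or N2 replicate 1. UBC35 (NO12G02220), the UBC13-type E2, fell on day 1 by 0.33 and rose again to day 2 by 0.28. UBC17 (NO06G01370, KEGG entry BIRC6) fell on both days (-0.30 and -0.46). Both calls were lost with TPM, and the day-1 call also without C0 replicate 1. The SUMO E2 had 2 loci: SCE1 (NO22G01210) rose from N1 to N2 only (0.42), a call lost with DESeq2 and without N1 replicate 2 or N2 replicate 2. The day-1 change of SCE1 (-0.32) passed with library totals and with TPM. The other, NO22G01190, in one model with a folate transporter, held 158 and 166 CPM in C0, 175 and 187 on day 1, then 137 and 145 on day 2. UBC27 (NO24G00900) passed no test, although its rise from N1 to N2 passed with library totals and without N1 replicate 1.

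BIRC6 in mammals is a very large E2 and ligase in one protein that restrains apoptosis. Of the 3 members with this KEGG entry, the adjacent NO28G00150 and NO28G00160 rose under ND, while UBC17 (NO06G01370, KEGG entry BIRC6) fell, as given above. NO28G00160, in one model with L-2-hydroxyglutarate dehydrogenase, so that its counts may come from either, held 25.8 and 18.0 CPM in C0, 70.2 and 69.9 on day 1, then 41.2 and 43.7 on day 2, with log2 fold changes of 1.68 ± 0.13 and 0.96 ± 0.14 against C0. NO28G00150 was near the detection floor in C0, at 0.595 and 3.64 CPM where 3 counts are worth 0.596 and 0.577, and reached 23.2 and 20.2 CPM in N1 and 11.8 and 15.4 in N2. Its log2 fold change of 3.33 ± 0.39 on day 1 depended on the C0 library used, at 2.57 without C0 replicate 1 and 5.14 without C0 replicate 2. The day-2 value of 2.66 likewise became 1.90 or 4.46, and the adjusted p stayed below 0.05 in each case.

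HECT ligases take ubiquitin onto themselves before passing it to the substrate. Of the 13 genes, 5 rose and 3 fell in N1 (38.5% and 23.1%, beside 33.3% and 37.1% of all genes tested). In N2 against C0, 4 rose and 3 fell (30.8% and 23.1%, beside 35.0% and 34.9%). From N1 to N2, 3 rose and 4 fell (23.1% and 30.8%, beside 29.4% and 28.5%). UPL4 at NO16G02200, whose KEGG entry is TRIP12, had the strongest response of the group: 127 and 121 CPM in C0, 398 and 396 on day 1, then 343 and 333 on day 2. It rose by 1.68 ± 0.05 on day 1 and by 1.45 ± 0.05 on day 2, with no overlap between any groups. Of the other TRIP12 loci, NO09G00160 had a log2 fold change of -0.30 on day 1 (lost without N1 replicate 2 or either C0 library), and NO09G00170 passed no test (0.14 ± 0.30).

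HERC4 at NO04G01130 was highest on day 1, with 93.9 and 101 CPM in C0, 201 and 187 on day 1, then 107 and 108 on day 2. The rise of 0.99 ± 0.07 was followed by a fall of 0.85 on the log2 scale, and N2 did not pass the test against C0 (0.14 ± 0.07). This day-2 difference passed with library totals and with TPM. The related NO04G00970 held 55.8 and 58.2 CPM in C0, 75.3 and 77.8 on day 1, then 47.1 and 48.9 on day 2. It rose by 0.42 ± 0.09 on day 1 and was below C0 on day 2 (-0.25 ± 0.09), a day-2 call lost without C0 replicate 2 or N2 replicate 1. Of the HERC1-type ligases, NO25G01690 rose on both days against C0 (0.78 and 0.55) and NO18G02260 on day 2 only (0.66), whereas HERC2 (NO23G00900) fell on day 2 only (-0.46). With library totals HERC2 also fell on day 1.

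The NEDD4-like gene NO04G02780, with the KEGG entry HUWE1, held 111 and 110 CPM in C0, 62.8 and 66.9 on day 1, then 66.5 and 77.0 on day 2, and fell on both days (-0.77 ± 0.09 and -0.62 ± 0.08). UPL1 (NO09G00050) fell on day 1 by 0.25 and rose again by 0.29. The gene described as ptr1 (NO28G00030) rose on both days (0.43 and 0.61), and its further rise from N1 to N2 (0.19) was lost without N1 replicate 1 or N2 replicate 1. UPL6 (NO03G01390) and another HERC4 entry (NO01G04310) passed no test. The day-2 rise of UPL6 against C0 passed with library totals, with TPM and without N2 replicate 1. Its rise from N1 to N2 passed with library totals and with TPM.

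**Figure D4:**
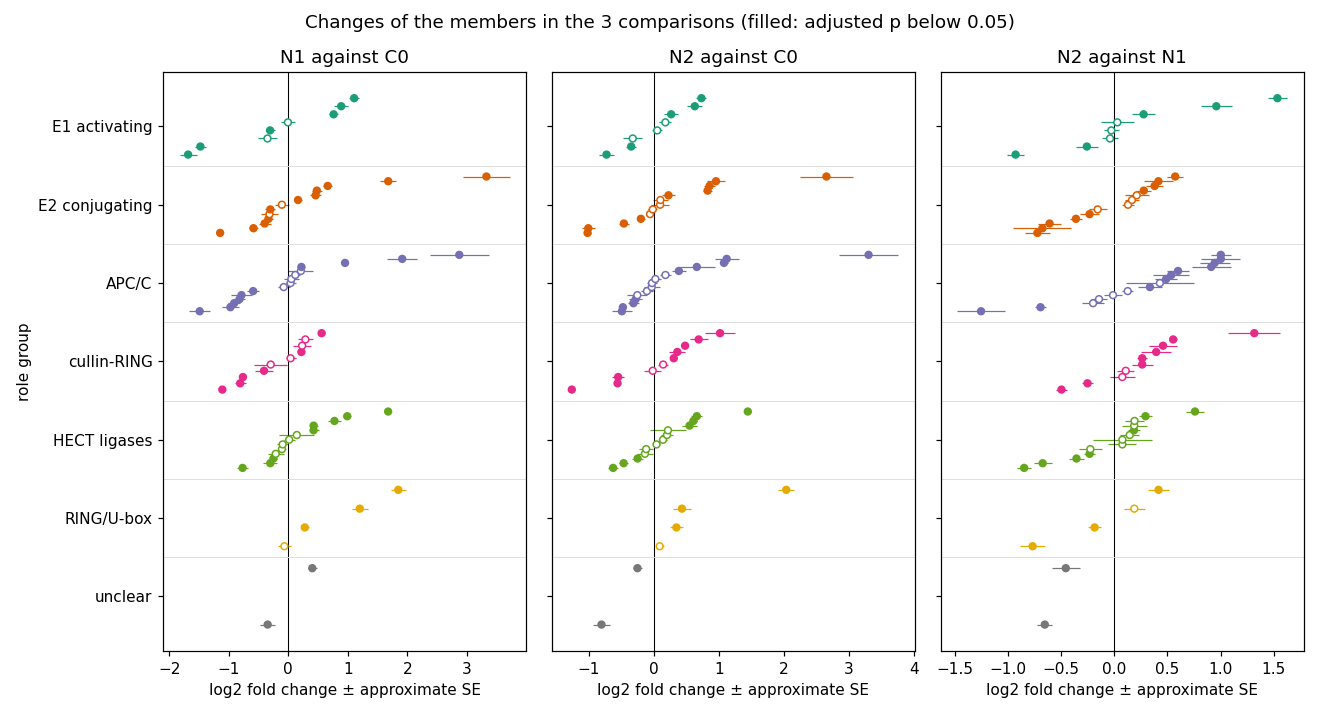
Log2 fold changes (horizontal axis) of 65 tested members in the 3 comparisons, by role group, with bars for the approximate SE and filled points for an adjusted p below 0.05. The E1, E2, APC/C, cullin-RING and HECT groups spread to both sides of 0 in each panel. None of the 4 RING or U-box genes fell against C0, and both unclear genes are below 0 in the panels that compare N2.

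Of the 4 RING or U-box ligases, 3 rose and none fell in N1, and likewise in N2 against C0. Over all genes tested, 33.3% rose and 37.1% fell in N1, and 35.0% and 34.9% in N2. FANCL (NO16G00080), the ligase of the Fanconi anaemia DNA repair pathway in human cells, stood at 12.9 and 15.3 CPM in C0, 49.9 and 52.0 on day 1, then 56.6 and 59.6 on day 2. Its log2 fold changes of 1.85 ± 0.13 and 2.04 ± 0.12 were the largest of this group, with both ND days well above C0. PPIL2 (NO15G01670), a U-box protein with a cyclophilin domain, held 21.0 and 19.5 CPM in C0, 45.2 and 48.2 on day 1, then 29.2 and 25.5 on day 2. It rose by 1.20 ± 0.13 on day 1, fell by 0.77 to day 2 and was still above C0 (0.43, lost without C0 replicate 2 or N2 replicate 1). PRP19 (NO08G00290), a U-box ligase of the spliceosome, had 204 and 214 CPM in C0, 240 and 267 on day 1, then 215 and 231 on day 2, a rise of 0.28 ± 0.06 on day 1. LUL2 (NO10G03020, MGRN1) rose on day 2 by 0.35, a call that ended without C0 replicate 1. With DESeq2, 1 rather than 3 of these genes was higher in N2 than in C0.

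For the remaining 2 members the description and the KEGG entry pointed to different roles. NO01G00930 has the KEGG entry UBA2 but is described as a tyrosine-protein phosphatase. It held 78.6 and 77.7 CPM in C0, 103 and 104 on day 1, then 66.3 and 65.1 on day 2, with a rise of 0.40 ± 0.07 on day 1 and a log2 fold change of -0.25 ± 0.07 on day 2. NO22G00340 has the entry CDC20 but is described as WDR12, a protein of ribosome assembly. It held 42.5 and 37.5 CPM in C0, 32.7 and 30.1 on day 1, then 24.1 and 21.7 on day 2, and fell by 0.80 ± 0.13 on the log2 scale on day 2.

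The identifiers placed 10 pairs of members with the same KEGG entry next to or close to each other. Of the 20 genes in these pairs, 15 had estimated counts that were not whole in every library, compared with 8 of the 47 other members. A count that is not whole is an estimate in which reads can be shared out between gene models, so the changes of the 2 genes of such a pair may not be separate measurements. Whether such models are fragments of one gene was not tested. Within the pairs, directions matched in some and not in others. Both NO28G BIRC6 loci rose, both NO12G UBA1 loci rose and both cullin-3B loci fell. At the other UBA1 pair, NO21G01790 had the fall and return described above while the test was not passed by NO21G01780, which is a joint model with a ribonuclease P subunit. Joint models of this kind were found for 4 members, whose counts cover both products, and since the libraries did not keep the strand, reads from an overlapping antisense gene would be counted with them.

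**Figure D5:**
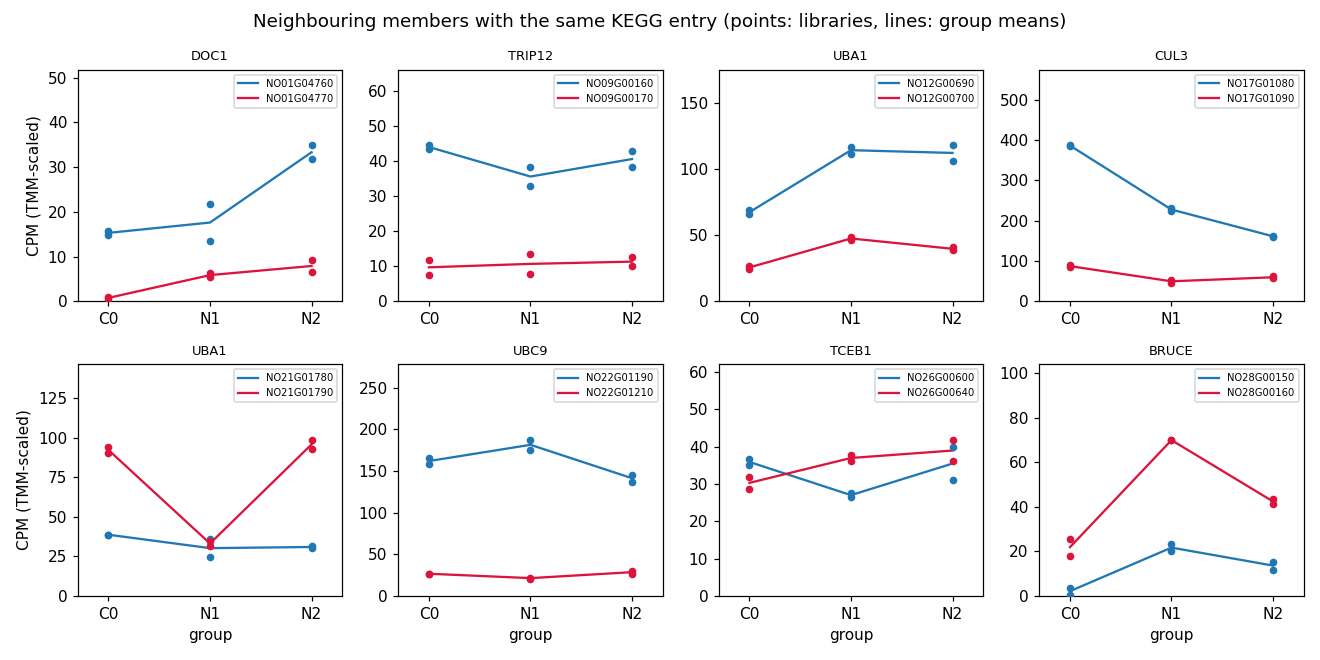
CPM of 8 pairs of neighbouring members with the same KEGG entry (panel titles) in C0, N1 and N2, with points for libraries and lines through group means. The NO28G BIRC6 (BRUCE), NO12G UBA1 and cullin-3B pairs move in 1 direction from C0 to N1, whereas in the NO21G UBA1 pair NO21G01790 drops from about 92.2 to 33.1 CPM and recovers.

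Other ubiquitin genes outside these 67 were counted for comparison. Of all genes tested, 33.3% rose and 37.1% fell in N1. The shares of all genes tested were 35.0% and 34.9% in N2 against C0, and 29.4% and 28.5% from N1 to N2. The 48 genes annotated to the proteasome, which degrades ubiquitinated proteins, showed 7 rises and 32 falls in N1, 17 and 12 in N2 against C0, and 33 rises and 6 falls from N1 to N2. Of 39 tested genes found by names of deubiquitinating enzymes, which remove ubiquitin, 10 rose and 24 fell in N1. In N2 against C0, 7 rose and 19 fell, and 10 rose and 11 fell from N1 to N2. The search list kept a gene described as deubiquitination-protection protein dph1, whose name is not that of such an enzyme. The 9 genes of the COP9 signalosome, which removes NEDD8 from cullins, showed 4 rises and 4 falls in N1. Their counts were 2 rises and 5 falls in N2, and 2 and 4 from N1 to N2. Among 53 tested ligases outside the KEGG list, 22 rose and 16 fell in N1, and 22 rose and 13 fell in N2. From N1 to N2, 9 of these ligases rose and 13 fell (17.0% and 24.5%). For 18 genes of ubiquitin-like proteins and their partners the counts were 1 and 9 in N1, 3 and 8 in N2, and 7 and 2 from N1 to N2. The 15 genes with both pathways showed 4 rises and 8 falls in N1, 3 and 6 in N2, and 6 and 4 from N1 to N2.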

How the data were processed

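The authors trimmed reads with Trim Galore, aligned them with STAR to the IMET1 assembly from NanDeSyn, marked duplicates with Picard and quantified genes with featureCounts and StringTie; no versions are given in the sources used here. The estimated counts that the authors deposited for each library, beside TPM and gene lengths, come from their alignments; which tool made them is not given in the sources used here. About 79% to 80% of the estimated counts were whole to within 0.005, and all were rounded. The authors' 3 tables of differential genes (log fold changes, p-values) were not used. The 9736 genes reaching 1 CPM in 2 or more libraries were tested with edgeR 4.0.16 (R 4.3.3; TMM, glmQLFit, glmQLFTest, 1 term for group, all 6 libraries, two-sided), checked on simulated counts. The SE is the log2 fold change divided by the root of the F statistic. Limma 3.58.1 on log2(TPM + 1) and DESeq2 1.42.0 were alternatives. Figures were drawn with matplotlib 3.10.9.

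Members and comparison lists were chosen with earlier results of these data known. Roles came from word searches in descriptions, apart from the assignments by hand given at the start. Values in every library are given for the 6 called members with the largest rise and the 6 with the largest fall in each comparison (mean of at least 10 CPM), the member of highest TPM in each role group, members without counts in a group, and members called in opposite directions on the 2 days. Values of other members were added after they were seen. The deubiquitinase and COP9 searches also caught unrelated names, which were removed after seeing the data; the full lists of 53 and 10 tested genes had 16 rises and 29 falls, and 5 and 4, in N1. Lists are described by counts only, with no set test. No coordinates or gene sequences were used.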

Additional observations from a re-analysis of the deposited data

Results flagged for a closer look

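The change from C0 differed between day 1 and day 2 in 45 members, by the direct test of N2 against N1, which is 68.2% of the members beside 57.9% of all genes tested. The count includes NO10G02560, which has few counts, and 19 of the 45 calls were lost in at least 1 alternative. In 4 of these members the day-1 and day-2 changes against C0 were both past the test and opposite in sign, higher than C0 in N1 and lower in N2. The log2 fold change of N2 against N1 was -0.65 for NO01G00930 (KEGG entry UBA2), -0.67 for NO04G00970 (HERC4/UBE3A), -0.69 for NO20G01660 (CDC20) and -0.36 for NO22G01190 (UBC9 with a folate transporter). This pattern was found in 4.48% of all genes tested. The day-2 calls against C0 of NO01G00930, NO04G00970 and NO22G01190 were lost with DESeq2 and with TPM. Those of NO04G00970 and NO22G01190 were also lost without C0 replicate 2 or N2 replicate 1. The day-1 call of NO22G01190 was lost with library totals, DESeq2 and TPM, and without C0 replicate 1 or N1 replicate 2. Both calls of NO20G01660 held in every alternative tried.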

How the results depend on the processing

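Of the members' calls, 39 of 46 in N1 against C0, 28 of 43 in N2 against C0 and 26 of 45 in N2 against N1 held in every alternative tried, and no called change turned its direction. Apart from NO10G02560, the lost calls reached log2 fold changes of 0.41, 0.66 and 0.67 in size. With TPM and limma (pseudocount 1 or 0.1), 11 members rather than 18 were lower in N2 than in C0, 12 rather than 20 were lower in N2 than in N1, and 8 rather than 15 rose on day 1 and fell again. With DESeq2, 15 members rather than 25 rose from N1 to N2. In the role groups, DESeq2 called 3 rises and 1 fall rather than 5 and 4 in the APC/C for day 2 against C0, and 2 rises and 3 falls rather than 4 and 6 in the E2 genes for day 2 against day 1. TPM gave 1 rather than 3 falls of HECT ligases on day 1 and 1 rather than 4 falls of APC/C genes on day 2 against C0. TPM moved the median of all genes to 0.12 (day 2 against C0) and 0.11 (day 2 against day 1). Among the calls of members, the share that was higher went from 58.1% to 73.2% and from 55.6% to 70.7%. Over all genes this share went from 50.1% to 57.9% and from 50.8% to 62.6%. Library totals alone gave 67.3% of member calls and 61.1% of all calls as higher for N2 against N1. Leaving out 1 library gave 41 to 47, 36 to 43 and 37 to 45 members called. Same-numbered replicates did not deviate together (correlations of -0.03, 0.01 and -0.03), so no pairing by number was visible in the levels. These correlations cannot show whether same-numbered samples shared a culture or a batch. With a replicate block 47, 42 and 43 members were called. With 2 libraries a group, small changes and genes under 10 CPM (3 members) were measured least precisely, and no change can be assigned to nitrogen alone.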
